A study of Homo sapiens with 6 samples.

Results

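The 4 libraries of 22RV1 cells with a hairpin against IMPA1 or IMPDH2 were set, as 1 side, against the 2 libraries with a control hairpin, and genes were sought for which all 4 lay on the same side of both controls. Of 17742 genes tested, 3188 (18.0%) had all 4 knockdown libraries above both controls and 3280 (18.5%) had all 4 below, which left 11274 whose libraries overlapped. A further 21 of the 17811 listed genes separated in this way but held too few reads to be tested. 22RV1 cells come from a human prostate carcinoma and are a standard laboratory line. The cells stably expressed shLuc (luciferase), shIMPA1 or shIMPDH2, each group had 2 poly(A) RNA libraries, and all were grown in RPMI-1640 with 10% FBS and no other agent is named. The labels name no clone and no culture for any library, so p-values rest on the spread of these libraries alone, and that spread may be technical.

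A short hairpin RNA is cut by the cell into a small RNA that guides the silencing complex to a matching transcript. A hairpin against luciferase, which human cells lack, serves as the control for this machinery, so every group compared here carried a hairpin. IMPA1 releases free inositol from inositol phosphates and IMPDH2 catalyses the rate-limiting step of guanine nucleotide synthesis. The pooled comparison asks what cells with either hairpin share against the control line. Because both knockdowns are set against the same 2 shLuc libraries, an effect of both hairpins and a trait of the shLuc line alone cannot be told apart.

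Values are deposited normalised read counts, and recovered depths were 20828900 to 27773294 reads per library. The 10 most abundant genes took 4.19% to 5.23% of the reads. The shIMPA1 libraries lay furthest apart, with 934 genes differing more than 2-fold between them, against 266 for shLuc and 398 for shIMPDH2. All 10 luminal prostate markers were tested, and they summed to 124325 and 126822 in shLuc and to 95770 to 109243 in the knockdown libraries, although 3 members rose, 2 fell and the median log2 change was -0.04. None of 4 endothelial markers had a value, and of 5 leukocyte markers 2 were tested, with no call. Of 7 fibroblast markers 3 were tested and fell (COL1A1, COL3A1 and LUM), with sums of 506 and 546 in shLuc and 206 to 386 in the knockdown libraries, and the part of other cells in any result was not tested. In such bulk libraries fewer cells of a type and less RNA per cell cannot be told apart. Basal markers summed to 0.900 and 2.63 in shLuc, to 1.80 and 143 in shIMPA1 and to 135 and 122 in shIMPDH2.

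**Figure D1:**
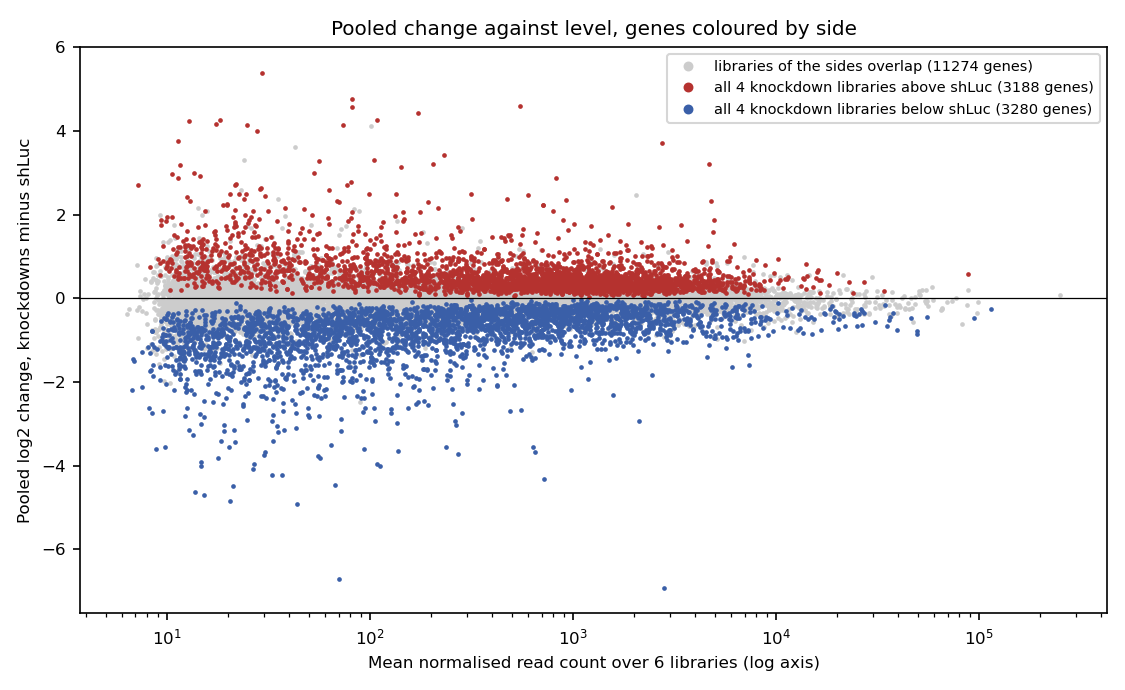
Each point is 1 of 17742 genes, with its mean normalised read count over the 6 libraries on a log axis and its pooled log2 change on the vertical axis. Red and blue genes have all 4 knockdown libraries above (3188) or below (3280) both shLuc libraries, and grey genes overlap. The blue points reach further from 0 than the red ones, with medians of -0.65 and 0.43.

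The pooled contrast (the mean of the knockdown groups minus shLuc, limma with 1 coefficient per group) called 4210 genes at a Benjamini-Hochberg adjusted p under 0.05, or 23.7% of those tested. Of these, 1976 (11.1%) rose and 2234 (12.6%) fell. Separation and call rest on the same values, so neither supports the other: 3653 of the called genes (86.8%) were separated, and 557 were not. An exact permutation test of 1 gene, with 4 libraries against 2, cannot give a one-sided p under 0.0667. When the 4 knockdown libraries were fitted as 1 group, so that the difference between the knockdowns counted as spread (the 2-group fit), 153 genes rose and 258 fell, all of them among the 4210 and all separated.

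Falls were larger than rises. The median pooled log2 change was -0.65 over the 3280 genes below and 0.43 over the 3188 above, and 824 called genes fell more than 2-fold while 382 rose as much. The gap between the nearest libraries of the sides was often narrow, with a median of 1.16-fold below and 1.11-fold above. It passed 2-fold for 253 genes below and 87 above, and 4-fold for 60 and 18. At the edge of the rule, SIN3B lay just inside above, with its nearest knockdown library at 1218 against 1217 in shLuc, and TAB2 just outside. CEP83 lay just inside below and EMP3 just outside. The genes above held 13.4% to 13.9% of all values in shLuc and 17.6% to 20.3% in the knockdown libraries, and those below held 18.8% to 19.1% and 11.4% to 14.6%.

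The targets themselves were not shared. IMPA1 stood at 1621 and 1331 in shLuc, 957 and 1101 with shIMPA1 and 1795 and 1842 with shIMPDH2. IMPDH2 (GRCh38 chromosome 3, 49024325 to 49029408) stood at 4269.9 and 5032, 4435 and 5055 and 2932 and 3166 in the same order. Each was lowest in the libraries with its own hairpin, and neither separated or was called in the pooled contrast (log2 change -0.10, adjusted p = 0.549 for IMPA1, and -0.29, 0.0876 for IMPDH2). Of 13 genes of the RNA interference machinery, 1 lay below and none was called in either direction, with a median pooled log2 change of -0.03.

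The largest shared falls were of membrane, secreted and cytoskeletal genes. SUSD2, which encodes a sushi domain protein of the cell surface (chromosome 22, 24181259 to 24189110), stood at 7462 and 9183 in shLuc, 80.8 and 74.2 with shIMPA1 and 56.6 and 61.9 with shIMPDH2. The 4 knockdown libraries lay within a narrow band more than 90-fold under the controls, and the pooled fall was 121-fold (log2 change -6.91, SE 0.13, adjusted p = 2.36e-10). ADM, which encodes the vasodilator peptide adrenomedullin (chromosome 11, 10304680 to 10307397), went from 1649 and 1743 to 141 and 121 (shIMPA1) and 125 and 139 (shIMPDH2), a fall of 12.8-fold. CRISPLD1, a secreted protein, went from 1984 and 1953 to 81.7 and 71.6 with shIMPA1 and 126 and 121 with shIMPDH2.

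Cytoskeletal and vesicle genes followed. VIM, the intermediate filament vimentin of mesenchymal cells (chromosome 10, 17228259 to 17237593), stood at 658 and 753 in shLuc, 40.4 and 43.1 with shIMPA1 and 61.2 and 70.9 with shIMPDH2 (log2 change -3.72, SE 0.16, adjusted p = 2.58e-07). VIL1, the actin bundler villin of microvilli (chromosome 2, 218419092 to 218453295), went from 1529 and 1651 to 120.3 and 51.8 (shIMPA1) and 235 and 219 (shIMPDH2). SYTL2, which ties secretory vesicles to the membrane (chromosome 11, 85694224 to 85811159), went from 4814 and 5140.1 to 521 and 564 (shIMPA1) and 821 and 758 (shIMPDH2). In all 3 genes the controls stood more than 5-fold over the nearest knockdown library. TNS3, a focal adhesion protein, and ESPN, an actin bundler, fell 14.1-fold and 7.66-fold.

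Genes better known from neurons were also among the largest falls. SLC17A6, a vesicular glutamate transporter, stood at 166 and 160.1 in shLuc, 24.2 and 6.90 with shIMPA1 and 16.2 and 11.2 with shIMPDH2, and GRM3, a metabotropic glutamate receptor, fell 7.87-fold. NMB, the bombesin-like peptide neuromedin B, went from 608 and 605 to 63.7 and 47.5 (shIMPA1) and 43.9 and 50.6 (shIMPDH2). SLC17A9, the vesicular nucleotide transporter, went from 115 and 133 to 4.49 and 2.59 (shIMPA1) and 2.31 and 3.37 (shIMPDH2). CDR1 and LINC00632 lie on opposite strands of the same stretch of chromosome X, where reads of the pair cannot be assigned with certainty. They fell 16.01-fold and 12.1-fold. DDX53, a DEAD-box gene known from testis and tumours, stood at 203 and 213 in shLuc and at 1.80 and 1.73 in shIMPA1, while shIMPDH2 held 1 read in all, a ratio of shLuc to shIMPDH2 of 365 with a 95% counting interval of 65.2 to 14453. Without a shLuc library DDX53 and SLC17A9 missed the filter on low values and were not tested. RORB, a nuclear receptor, fell 15.5-fold with uneven libraries, 27.8 and 0.863 with shIMPA1 and 48.5 and 31.5 with shIMPDH2 against 221 and 319 in shLuc. Its call was lost without shLuc replicate 1 (adjusted p = 0.0655) or replicate 2 (0.0948) and its log2 change moved from -3.96 to -4.95 without shIMPA1 replicate 1 and -2.97 without replicate 2.

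**Figure D2:**
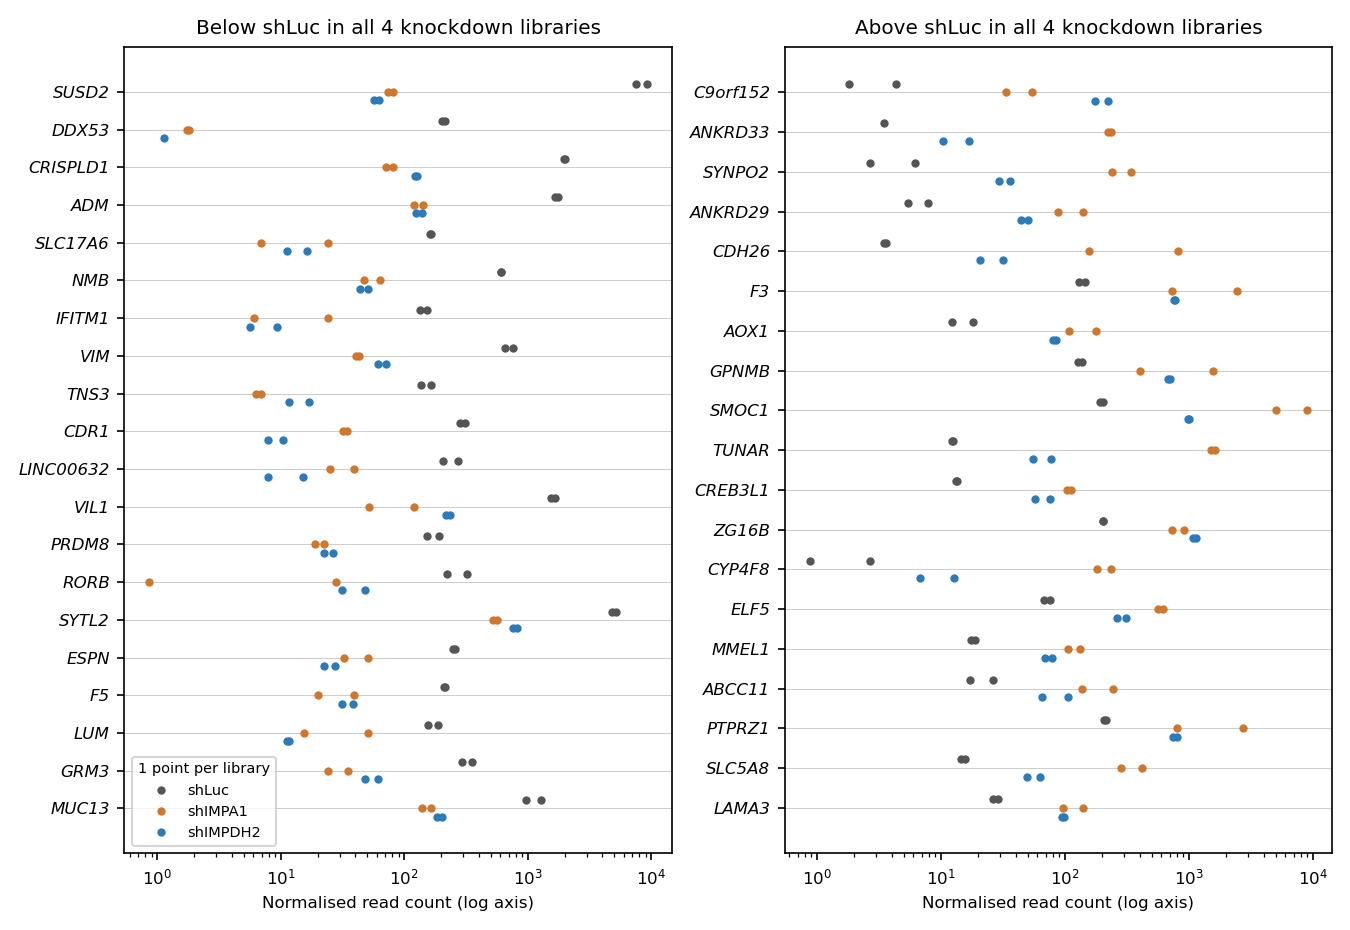
Normalised read counts on a log axis of 20 genes below and 19 above with the largest smaller-of-both log2 changes, 1 point per library, coloured by group. In the left panel all 4 knockdown points lie left of both shLuc points, at SUSD2 between 56.6 and 80.8 against 7462 and 9183. In the right panel they lie right, with a wide spread between the knockdowns at ANKRD33, SYNPO2 and TUNAR. A library at 0 is not drawn on the log axis.

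The largest shared rises held fewer reads in the control. F3, tissue factor, which starts blood coagulation (chromosome 1, 94529225 to 94541800), stood at 129 and 145 in shLuc, 731 and 2449.5 with shIMPA1 and 769 and 751 with shIMPDH2 (log2 change 2.87, SE 0.34, adjusted p = 0.000238). ELF5, an epithelial ETS transcription factor (chromosome 11, 34478793 to 34513805), rose from 68.4 and 76.1 to 566 and 614 (shIMPA1) and 262 and 309 (shIMPDH2). ZG16B, a secreted lectin-like protein, rose from 203 and 203 to 724 and 906 (shIMPA1) and 1087 and 1136 (shIMPDH2). GPNMB, a membrane glycoprotein of melanosomes and lysosomes, rose 5.56-fold. AOX1, the enzyme aldehyde oxidase, rose from 18 and 12.3 to 178 and 108 (shIMPA1) and 80.9 and 85.5 (shIMPDH2). CREB3L1, a transcription factor held in the endoplasmic reticulum membrane, rose from 13.5 and 13.1 to 112 and 104 (shIMPA1) and 76.2 and 57.4 (shIMPDH2). LAMA3, a laminin chain of epithelial basement membranes, rose 3.76-fold.

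Among genes with a mean value of 50 or more, C9orf152 had the largest rise ranked by the smaller of its changes, from 1.80 and 4.38 to 33.2 and 54.4 with shIMPA1 and 174 and 222 with shIMPDH2. SMOC1, a secreted calcium-binding protein, rose from 192 and 204 to 5044 and 8976 with shIMPA1 and 1000.4 and 986 with shIMPDH2. SYNPO2, an actin-binding protein, and SLC5A8, a sodium-coupled monocarboxylate transporter, rose 19-fold and 8.76-fold, with log2 differences (shIMPDH2 minus shIMPA1) of -3.10 and -2.61. The calls of SMOC1 (adjusted p = 0.0811), SYNPO2 (0.0820) and SLC5A8 (0.104) were lost in the 2-group fit, as was that of PTPRZ1 (0.0616), a receptor phosphatase that rose 5.08-fold.

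A handful of genes had no read in either control library. FGF8, a fibroblast growth factor of development, stood at 60.1 and 56.9 with shIMPA1 and 35.8 and 22.5 with shIMPDH2, at least 34.3-fold higher than a floor of 3 reads over the shLuc group. The other 4, chosen after their values were seen, were OR51E1, an odorant-type receptor (at least 15.1-fold), MSMB, a protein secreted by prostate epithelium (at least 17.9-fold), SFTPA2 (at least 19.6-fold) and KRT6A (at least 12.5-fold). KRT14, a basal keratin with 1 shLuc read, had a ratio of 81.7 with a 95% counting interval of 14.4 to 3249. SFTPA2 stood at 1.80 and 31.1, KRT6A at 1.80 and 25.02 and KRT14 at 1.80 and 54.4 in shIMPA1, so 1 of its libraries was near the control for all 3, and the basal keratin KRT5 stood at 0 and 88.9 there and at 79.7 and 84.4 in shIMPDH2. KRT5 was not called by the limma fit used here (adjusted p = 0.0564), but it was called higher by edgeR, with a replicate block, with a pseudocount of 8 and without either shIMPA1 library. MSMB held 3 and 15 reads in shIMPA1 and 36 and 42 in shIMPDH2, so it too was near the control in shIMPA1 replicate 1. It lost its call in the 2-group fit (adjusted p = 0.0818), as did SFTPA2, KRT6A and KRT14. The calls of SFTPA2, KRT6A and KRT14 were lost without shLuc replicate 1 (adjusted p = 0.0558, 0.0702 and 0.123) and without replicate 2 (0.0576, 0.0721 and 0.0726). The log2 change of KRT14 was 4.13, 5.21 without shIMPA1 replicate 1 and 3.06 without replicate 2. KRT6A and KRT14 have close paralogs, as does SFTPA2, and reads may be split between them.

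The difference between the knockdowns was tested without the controls. shIMPDH2 against shIMPA1 called 4627 genes, or 26.1% of those tested. It called 15.4% of the genes above, 351 of them higher in shIMPA1 and 141 higher in shIMPDH2. It called 21.7% of the genes below, 539 of them lower in shIMPA1 and 174 lower in shIMPDH2. The genes above and below were chosen from the same knockdown values, which favours a share under 26.1%. These shares are therefore a description and no measure of how alike the knockdowns were. The change against shLuc was larger in shIMPA1 for 60.04% of the genes above and 63.1% of those below. Among the 4210 called genes, 200 had changes of opposite sign in the knockdowns.

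Several shared genes moved by nearly the same amount. Against the same controls the log2 changes of ADM were -3.69 in shIMPA1 and -3.67 in shIMPDH2, a difference of 0.02 (SE 0.15). FLRT2, a cell adhesion protein, went from 551 and 597 to 104 and 86.3 (shIMPA1) and 102 and 101.2 (shIMPDH2). GFRA1, a receptor for the growth factor GDNF, fell 5.08-fold and KIAA1217 5.21-fold. HTR3A, a subunit of the serotonin-gated channel, fell 4.96-fold, a call lost without shLuc replicate 2 (adjusted p = 0.0514). Of the even rises, ABAT, which breaks down the transmitter GABA, went from 109.8 and 103 to 276 and 405 (shIMPA1) and 348 and 379 (shIMPDH2). ABCG1, a cholesterol exporter, rose 3.06-fold, and the phospholipid enzymes PNPLA7 and MBOAT2 rose 2.84-fold and 2.72-fold. FCGBP, a protein of mucus, rose from 22.5 and 25.4 to 68.2 and 78.5 (shIMPA1) and 71.6 and 71.98 (shIMPDH2). These genes were picked for a difference under 0.2 on the log2 scale, so their evenness is a description.

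Others were on the same side in all 4 libraries but far apart. NUDT12 stood at 167 and 137 in shLuc and 65.8 and 33.7 in shIMPDH2 and held no read in shIMPA1, at least 115-fold lower than shLuc and at least 37.6-fold lower than shIMPDH2 by the 3-read floor. SLC16A14, a monocarboxylate transporter family member, stood at 289.8 and 296 in shLuc, 1.80 and 6.90 with shIMPA1 and 105 and 128 with shIMPDH2, a difference of 4.64 on the log2 scale (SE 0.39, adjusted p = 2.66e-05). HNMT, which inactivates histamine, PON1, a paraoxonase, and AVPR1A, a vasopressin receptor, were also lower in shIMPA1, by log2 differences of 3.74, 2.76 and 2.48.

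On the rising side TUNAR, a gene annotated first as a long non-coding RNA, stood at 12.6 and 12.3 in shLuc, 1626 and 1494 with shIMPA1 and 77.4 and 55.1 with shIMPDH2. LBH, CYP4F8, a fatty acid hydroxylase, ANKRD33 and CDH26, a cadherin, were also higher in shIMPA1, with log2 differences (shIMPDH2 minus shIMPA1) of -3.98, -4.34, -4.01 and -3.75. The pooled log2 change of ANKRD33 was 4.75, 3.67 without shLuc replicate 1 and 5.84 without replicate 2, and that of CDH26 was 4.42, 5.02 without shIMPA1 replicate 1 and 3.83 without replicate 2. None of these 10 uneven genes kept its call in the 2-group fit (adjusted p from 0.120 for ANKRD33 to 0.292 for HNMT). That fit counts as spread the very difference they were picked for, so the choice of genes favours this loss.

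**Figure D3:**
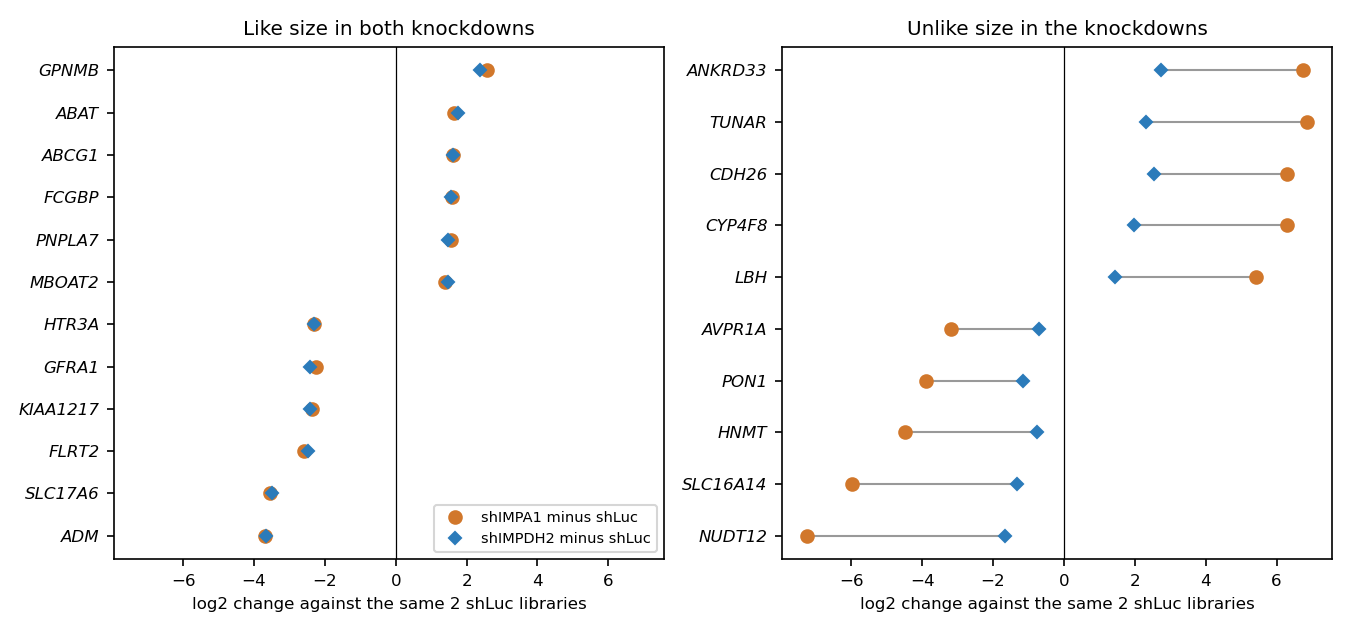
log2 changes against the same 2 shLuc libraries, circles for shIMPA1 and diamonds for shIMPDH2, of genes picked for a difference under 0.2 (left) and for the largest differences (right). The markers overlie each other on the left and lie apart on the right, up to 5.59 at NUDT12, whose shIMPA1 value rests on 0 reads and on the pseudocount.

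Among the most abundant shared genes the changes were small. LDHB, a lactate dehydrogenase subunit, stood at 73517 and 65683 in shLuc, 32886 and 26325 with shIMPA1 and 45809 and 53932 with shIMPDH2, and PTMA, prothymosin, fell 1.70-fold. FASN, the fatty acid synthase, rose from 62449 and 70535 to 103590.0 and 84297 (shIMPA1) and 110410.0 and 98463 (shIMPDH2). B2M, the light chain of HLA class I, rose 1.59-fold and the mitochondrial chaperone HSPA9 1.51-fold. Leaving out a control ended these calls: without shLuc replicate 1 those of LDHB (adjusted p = 0.0571), FASN (0.208) and HSPA9 (0.0946), and without replicate 2 those of PTMA (0.0554), FASN (0.106) and B2M (0.168). The call of FASN was also lost without either shIMPDH2 library (0.101 and 0.0699), and that of B2M without shIMPDH2 replicate 2 (0.0550). None of the 5 was called in the 2-group fit (adjusted p from 0.0811 to 0.184).

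Gene lists were described by the share of their tested members on each side, beside 18.0% above and 18.5% below over all genes. The lists and members were chosen with earlier results known and no list was tested as a set. Lysosomal and autophagy genes, ATF4 targets and mitochondrial ribosomal proteins lay above more often than below, and genes of the cell cycle, cadherins, matrix and the interferon response below more often than above. Calls in every list depended on the libraries in the fit: over all genes 480 rose and 516 fell without shLuc replicate 1, 481 and 468 without replicate 2, 1036 and 1368 or 931 and 1287 without a shIMPDH2 library, and 3630 and 4092 or 2832 and 3115 without a shIMPA1 library.

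**Figure D4:**
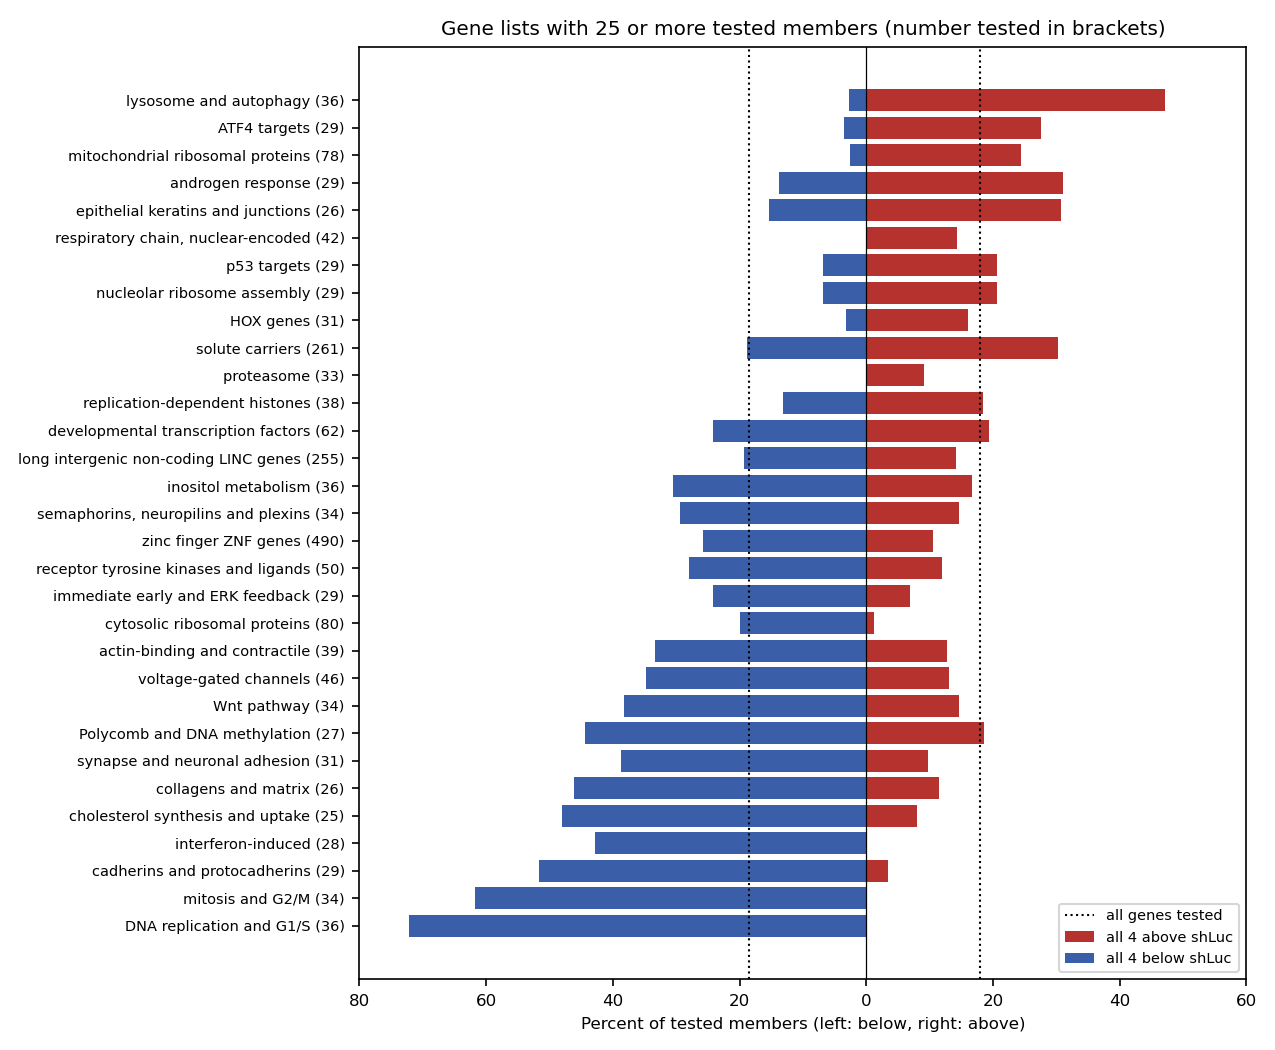
Percent of the tested members of each gene list of 25 or more that had all 4 knockdown libraries above (red, right) or below (blue, left) both shLuc libraries. Dotted lines mark all 17742 genes, at 18.0% and 18.5%. The lysosome list reaches furthest right (17 of 36) and DNA replication furthest left (26 of 36).

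Lysosomes are the acidic compartments where hydrolases break down material brought by endocytosis and autophagy, and TFEB is a transcription factor that raises many of their genes. Of 36 lysosome and autophagy genes, 17 lay above and 1, ULK1, below. In the pooled contrast 14 rose, 12 of them above, and GLA fell, with a median log2 change of 0.35 against 0.00 over all genes. NEU1, the lysosomal sialidase, stood at 819 and 806 in shLuc, 1729.5 and 2874 with shIMPA1 and 1903 and 2050.3 with shIMPDH2 (log2 change 1.37, SE 0.17, adjusted p = 0.000287). TFEB itself rose from 502 and 580.2 to 1305 and 1046 (shIMPA1) and 807 and 803 (shIMPDH2). The autophagy receptor SQSTM1 rose from 3305 and 3200.1 to 5004 and 6330.3 (shIMPA1) and 4959 and 5432 (shIMPDH2). The autophagosome protein MAP1LC3B and BECN1, which starts autophagosome formation, rose 1.65-fold and 1.55-fold. The proteases CTSD, CTSF, CTSB and TPP1, the hexosaminidase HEXA and the chloride channel CLCN7 rose between 1.27-fold and 1.47-fold. The membrane proteins LAMP1 and LAMP2 overlapped between the sides. The count depended on the controls: 4 rose without shLuc replicate 1, 6 without replicate 2, 6 and 5 without shIMPDH2 replicate 1 or 2, and 25 and 19 without shIMPA1 replicate 1 or 2. In the 2-group fit NEU1 and SQSTM1 kept their calls and the other 12 did not.

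The core of the element that TFEB binds is the E-box CACGTG, so promoters of the lysosomal genes above were searched for it and a window around it is shown for each gene that holds it, 5′ to 3′ on the gene's strand, with CACGTG in capitals. The sequences are from RefSeq on GRCh38.p14, all on the minus strand: chr6:31862895-31862994 for NEU1, chr11:1763928-1764021 for CTSD, chr11:66568607-66568704 for CTSF and chr16:1475029-1475102 for CLCN7.
NEU1: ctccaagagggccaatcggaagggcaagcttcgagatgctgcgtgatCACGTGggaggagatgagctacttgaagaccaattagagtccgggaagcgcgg
CTSD: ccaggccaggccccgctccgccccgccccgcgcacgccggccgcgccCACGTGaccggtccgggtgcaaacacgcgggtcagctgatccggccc
CTSF: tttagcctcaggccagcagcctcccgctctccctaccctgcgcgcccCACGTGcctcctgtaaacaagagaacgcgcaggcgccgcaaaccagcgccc
CLCN7: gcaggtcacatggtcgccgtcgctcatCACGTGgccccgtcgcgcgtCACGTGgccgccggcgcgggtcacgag
The element started 126 bases before the RefSeq gene start in NEU1 and 47 in CTSD. CTSF held it at 51 bases, shown here, and at 123, outside the window shown, and CLCN7 at 27 and 47. Of the 17 lysosomal genes above, 13 had a promoter in the table (250 bases before to 50 after the start) and 4 of these held CACGTG, against 9 of 28 over the whole list. Of all 12298 promoters matched to tested genes, 9.93% held it, as did 302 of 2378 (12.7%) of genes above and 178 of 2312 (7.70%) of genes below. The longer form TCACGTGA, which contains it, was held by 2.86% above, 1.21% below and 1.81% of all. It was held by 0 of the 13 lysosomal genes above, against 5 of 28 over the whole list. The median GC content of exons was 49.97% for genes above and 47.59% for genes below, and its part in these shares was not tested.

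Other elements were searched on both strands in the same promoters. The YY1 site AAGATGGC was held by 6.27% of genes above, 2.60% below and 4.97% of all. The E2F site TTTCCCGC was held by 2.02%, 3.29% and 2.54% in the same order, and the NF-Y box CCAAT by 33.9%, 38.3% and 36.5%. The shares of the AP-1 site TGACTCA (3.57%, 2.29%, 2.94%), the cyclic AMP element TGACGTCA (3.32%, 2.55%, 3.16%), the TEAD site ACATTCC (2.14%, 2.16%, 2.04%), the sterol element TCACNCCAC (1.18%, 1.12%, 1.11%) and the C/EBP-ATF site TGATGCAAT (0.0841%, 0.130%, 0.130%) were given in the same order. In the 2-group fit 111 risen and 191 fallen genes had a promoter. The YY1 site was held by 3.60% of the risen and 1.05% of the fallen, CACGTG by 10.8% and 7.33%, and TCACGTGA by 1.80% and 0.524%. A match is a description of letters and no evidence of binding.

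Stress responses were shared in part. ATF4 is the transcription factor of the amino acid and integrated stress response, and 8 of its 29 tested targets lay above and 1 below, with 13 risen and 1 fallen (6 and 7 risen without shLuc replicate 1 or 2). Its target GDF15, a secreted stress cytokine, stood at 932 and 949 in shLuc, 10947 and 12117 with shIMPA1 and 1778 and 2084 with shIMPDH2. DDIT3, a stress transcription factor, rose 2.99-fold and SESN2, a nutrient sensor, 2.10-fold. Over the list as a whole the rise lay in shIMPA1 and was not shared. Of the 29 targets, 19 were called higher in shIMPA1 than in shIMPDH2 and 2 lower. The median log2 change was 0.71 in shIMPA1 and -0.01 in shIMPDH2. The list summed to 118998 and 120786 in shLuc, 229049 and 183669 with shIMPA1 and 114914 and 122899 with shIMPDH2. In the 2-group fit none of the list was called. Of 22 genes of the unfolded protein response, 8 lay above and none below, with 7 risen and 4 fallen (1 and 1 without shLuc replicate 1, 4 and 2 without replicate 2, 7 and 8 without shIMPA1 replicate 2). The list's median log2 change was -0.15 in shIMPA1 and 0.28 in shIMPDH2, and 12 of the 22 were called higher in shIMPDH2 than in shIMPA1. Among those above were the transcription factor XBP1, from 1955 and 2369 to 3471 and 4076 (shIMPA1) and 3165 and 3329 (shIMPDH2), and the degradation factor HERPUD1, risen 1.56-fold. Without shLuc replicate 1 the calls of XBP1 (adjusted p = 0.0620) and HERPUD1 (0.114) were lost. The abundant ER chaperone HSPA5 overlapped between the sides.

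Matrix genes and cadherins lay below more often than above, but other adhesion genes did not. Of 20 integrins and laminins, 6 lay above and 4 below, with 4 risen and 5 fallen. Of 26 epithelial keratin and junction genes, 8 lay above and 4 below, with 8 risen and 3 fallen. Of 26 collagens and matrix genes, 12 lay below and 3 above, with 12 fallen and 1 risen and a median log2 change of -0.68. COL3A1 and LUM, counted here, are among the fibroblast markers too. NID1, a basement membrane linker, stood at 327 and 417 in shLuc, 87.96 and 115 with shIMPA1 and 57.8 and 31.5 with shIMPDH2. COL4A2, a basement membrane collagen, went from 53.1 and 52.5 to 7.18 and 9.49 (shIMPA1) and 9.24 and 13.5 (shIMPDH2), and LUM, the proteoglycan lumican, fell 9.03-fold. COL5A2 fell 1.72-fold, whereas COL6A1 rose from 878 and 872 to 2186 and 1909 (shIMPA1) and 1308 and 1291 (shIMPDH2). Without shLuc replicate 1 or 2, 8 and 7 fell, and in the 2-group fit 5 did, without a call for COL6A1 (adjusted p = 0.0960).

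**Figure D5:**
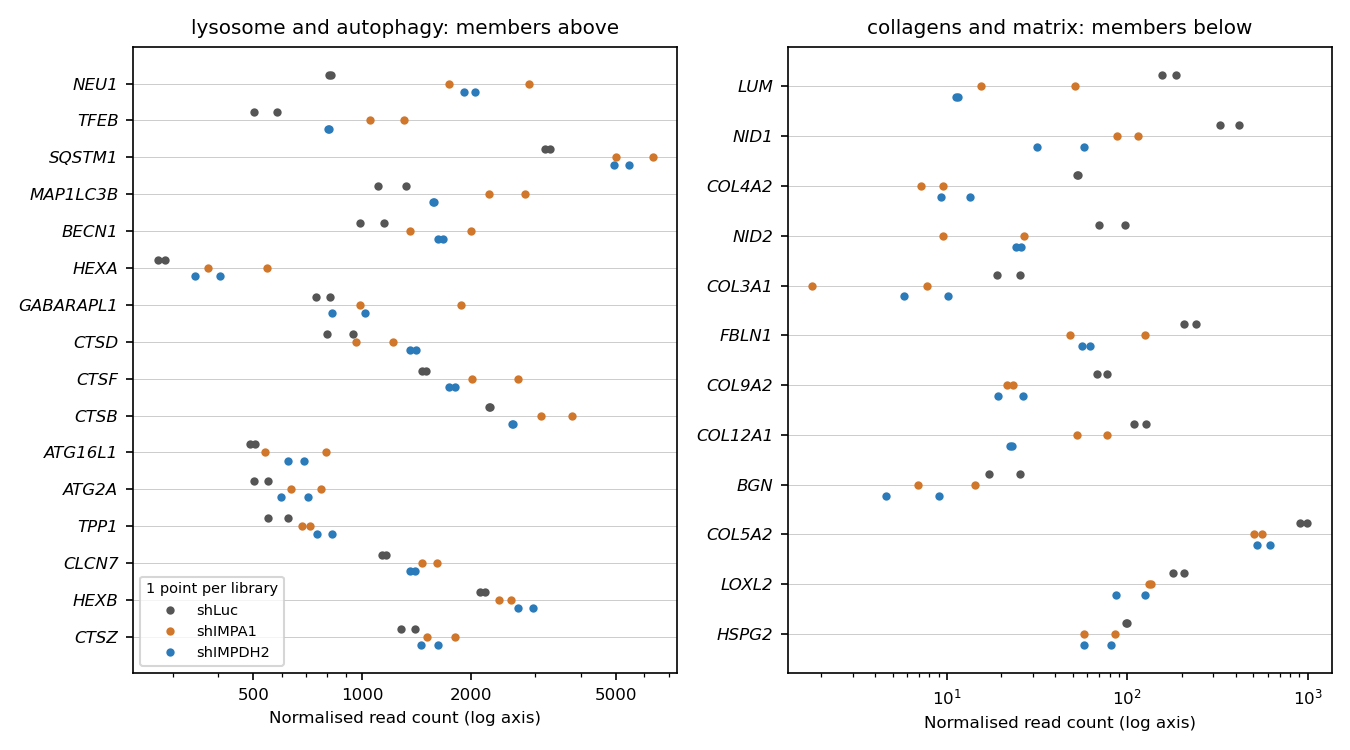
Normalised read counts on a log axis of 16 of the 17 lysosome and autophagy genes above (left) and the 12 collagen and matrix genes below (right), 1 point per library, coloured by group. The lysosomal shifts are small, with NEU1 at 806 and 819 in shLuc against 1730 to 2874, and the matrix shifts larger, with NID1 at 327 and 417 against 31.5 to 115.

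Of 29 cadherins and protocadherins, 15 lay below and 1, CDH26, above, with 13 fallen and 1 risen (4 and 3 fallen without shLuc replicate 1 or 2). PCDH10 stood at 379 and 424 in shLuc, 75.4 and 34.5 with shIMPA1 and 93.6 and 108 with shIMPDH2, and PCDH9 fell 3.77-fold. CDH2, the N-cadherin of mesenchymal and neural cells, fell 2.34-fold, a call lost without shLuc replicate 1 (adjusted p = 0.0643) or replicate 2 (0.160). The epithelial CDH1 overlapped. Of 12 mesenchymal genes, 6 lay below and none above. They included VIM, the matrix proteins THBS1 (from 584 and 585 to 136 and 129 (shIMPA1) and 217 and 192 (shIMPDH2)) and TNC (4.10-fold), and LOX, which crosslinks collagen (3.21-fold). PCDH9 (adjusted p = 0.0990) and TNC (0.0512) lost their calls in the 2-group fit. SNAI1, ZEB1 and TWIST1, transcription factors of the mesenchymal state, overlapped.

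Caveolae are small pits of the plasma membrane built from caveolins and cavins. Of 6 genes, 4 lay below and 1, PACSIN2, above, and these 5 were called (3 and 2 falls without shLuc replicate 1 or 2). CAV1 stood at 116 and 109 in shLuc, 13.5 and 23.3 with shIMPA1 and 34.7 and 37.1 with shIMPDH2, and CAVIN1 at 633 and 675, 300.7 and 395 and 259.9 and 276. CAV2 fell 3.51-fold, a call lost without shLuc replicate 2 (adjusted p = 0.0844). Of 21 targets of YAP and TAZ, the coactivators that respond to cell stretch, 10 lay below and 1, F3, above, with 10 fallen and 2 risen. CCN2, a secreted matrix protein, went from 64.8 and 61.3 to 9.87 and 6.90 (shIMPA1) and 24.3 and 11.2 (shIMPDH2). Without either shLuc library 2 fell, and the calls of CCN2 (adjusted p = 0.0503) and PACSIN2 (0.0530) were lost in the 2-group fit. Of 23 targets of TGF-beta and BMP signalling, 8 lay below and 1 above, with 1 risen and 10 fallen (3 and 2 without shLuc replicate 1 or 2), 5 of the falls among genes below. The list's median log2 change was -0.71 in shIMPA1 and -0.08 in shIMPDH2, and 10 members were called lower in shIMPA1 than in shIMPDH2. The ligand BMP2 fell from 141 and 153 to 68.2 and 52.6 (shIMPA1) and 47.4 and 37.1 (shIMPDH2).

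Interferon-induced genes encode antiviral proteins that cells make on sensing foreign RNA. None of 28 lay above and 12 lay below, with 9 fallen and 2 risen, both overlapping between the sides. Without shLuc replicate 1 or 2, 4 and 5 fell. IFITM3 stood at 709 and 914 in shLuc, 312 and 217 with shIMPA1 and 285 and 299 with shIMPDH2, and GBP1, a guanylate-binding protein, went from 122 and 142 to 61.03 and 37.1 (shIMPA1) and 27.7 and 38.2 (shIMPDH2). IFITM1 and IFITM2 fell 13.7-fold and 3.65-fold. The IFITM genes are close paralogs, and IFITM1 and IFITM2 overlap in the annotation, so reads may be split between them. ISG15, MX1 and IFIT3, which mark a strong interferon response, overlapped between the sides. The interferon-induced genes IFIT1, OAS3 and SAMD9 were called lower, with log2 changes of -1.06, -1.13 and -1.31. All of these calls were lost in the 2-group fit (adjusted p = 0.108, 0.282 and 0.148).

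Cell cycle genes separated but by unlike amounts. Of 36 genes of DNA replication, 26 lay below and none above, with 28 fallen, and of 34 of mitosis 21 lay below and none above, with 13 fallen. Their median log2 changes were -1.22 and -1.13 in shIMPA1 and -0.24 in shIMPDH2 for both lists. The shIMPA1 libraries differed in the mitosis genes, which summed to 81265 and 36574 there and to 120241 and 119586 in shLuc, and the pooled median of -0.70 became -1.01 without shIMPA1 replicate 1 and -0.37 without replicate 2. In the replication and mitosis lists 29 and 16 members were called lower in shIMPA1 than in shIMPDH2. MCM2, a subunit of the replicative helicase, showed this pattern, with 7187 and 7821 in shLuc, 3252 and 2023 with shIMPA1 and 6026 and 6098 with shIMPDH2, and its call was lost without shLuc replicate 2 (adjusted p = 0.0648). MCM3, another subunit, stood at 12998 and 13375, 4732 and 4804 and 3936 and 4167 in the same order, with no call between the knockdowns (log2 difference -0.24, SE 0.12, adjusted p = 0.159), and was the list's 1 call in the 2-group fit. The replication count was 8 without shLuc replicate 1, 1 without replicate 2 and 15 without shIMPDH2 replicate 1. No mitosis gene was called without either shLuc library, 1 without either shIMPDH2 library, 2 by DESeq2, and 34 and 24 without shIMPA1 replicate 1 or 2. Of 25 cholesterol genes, 12 lay below and 2 above, with 1 risen and 19 fallen (6 and 5 without shLuc replicate 1 or 2), while 20 were called lower in shIMPA1 than in shIMPDH2 and none was called in the 2-group fit.

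Prostate and androgen-responsive genes went both ways. Of 29, 9 lay above and 4 below, with 11 risen and 4 fallen (6 risen without shLuc replicate 2, and 2 fallen without either shLuc library). TMPRSS2, an androgen-induced protease, stood at 351 and 402 in shLuc, 816 and 1479 with shIMPA1 and 1482 and 1549.8 with shIMPDH2, and the kallikrein KLK4 rose 1.98-fold. KLK2 rose 1.83-fold, a call lost without shLuc replicate 2 (adjusted p = 0.0522). KLK4 lost its call in the 2-group fit (adjusted p = 0.0763). The kallikreins are paralogs with partly shared sequence.

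Of the target pathways, genes of inositol metabolism and of guanine and adenine nucleotides lay on both sides, while no gene of purine synthesis lay above. Of 22 genes of guanine and adenine nucleotides, 4 lay above and 2 below, with 3 risen and 4 fallen. None of these 22 was called in the 2-group fit. Of 36 genes of inositol metabolism, 6 lay above and 11 below, with 2 risen and 8 fallen, and none was called without either shLuc library. IMPA2, the paralog of IMPA1, stood at 1239 and 1167 in shLuc, 644 and 524 with shIMPA1 and 1049 and 1084 with shIMPDH2, and the phosphatase INPP4B fell 2.28-fold. Both calls were lost without shLuc replicate 1 (adjusted p = 0.0814 and 0.111) or replicate 2 (0.0559 and 0.0843). Of 8 genes of purine synthesis, 4 lay below and 3 fell (1 and 0 without shLuc replicate 1 or 2). Of 78 nuclear-encoded mitochondrial ribosomal proteins, 19 lay above and 2 below, with 8 risen and 2 fallen, and none was called in the 2-group fit. Of 42 nuclear-encoded genes of the respiratory chain, 6 lay above and none below, with 1 risen. Of 13 protein-coding genes of mitochondrial DNA, 11 lay below and 7 fell, at a median log2 change of -0.45. The mitochondrial count was 1 without shLuc replicate 1 and 0 without replicate 2.

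Large families differed in direction. Of 261 solute carriers, 79 lay above and 49 below, with 53 risen and 29 fallen. SLC5A6, the vitamin transporter for biotin and pantothenate, stood at 689 and 775 in shLuc, 923 and 849 with shIMPA1 and 6356 and 6333 with shIMPDH2, and SLC2A1, the glucose transporter, rose from 706 and 766 to 1316 and 1409 (shIMPA1) and 1121 and 1211 (shIMPDH2). SLC16A3, the lactate exporter, fell from 2729.9 and 2514 to 1044 and 827 (shIMPA1) and 883 and 1036 (shIMPDH2). Of 490 ZNF zinc finger genes, 52 lay above and 126 below, with 15 risen and 63 fallen, and ZNF385B fell 8.11-fold. Without shLuc replicate 1 or 2 these counts were 14 and 8 or 18 and 8 for solute carriers and 1 and 5 or 0 and 9 for ZNF genes. Of 46 genes listed as voltage-gated channels, 16 lay below and 6 above. KCNJ3 in this list, which fell 3.84-fold, encodes an inward rectifier potassium channel subunit and is not voltage-gated. Of 50 receptor tyrosine kinases and their ligands, 14 lay below and 6 above, with MET, the receptor of hepatocyte growth factor, fallen 2.13-fold and ERBB2 risen from 1639.9 and 1750.1 to 2665 and 3048 (shIMPA1) and 2588 and 2444 (shIMPDH2). SLC5A6 (adjusted p = 0.330), KCNJ3 (0.0835) and MET (0.0835) lost their calls in the 2-group fit.

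Shared genes were not spread evenly over gene classes. Protein-coding genes lay above in 19.7% and below in 19.3%, lincRNAs in 11.5% and 16.9%. The median mean value was 732 for genes above, 224 for genes below and 386 for the rest. Of 34 tested genes of mitochondrial DNA, 14 (41.2%) lay below and 0 above. Among the other chromosomes, the share below was 24.6% on chromosome 4, 22.8% on 12 and 22.1% on X, against 11.6% on 22. On chromosome 19, 12.3% lay above and 21.2% below.

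Neighbouring genes separated in runs, counted over consecutive tested genes. A run holds separated genes only, and 59.7% of all genes below and 53.2% of all genes above were called. The calls in each run stand beside these shares, and no run was tested as a set. The longest was of 10 genes below on chromosome 13, 80335976 to 93227317, of which 9 fell: from SPRY2, which was not called, through PTMAP5, SLITRK1, SLITRK6, MIR4500HG, SLITRK5, MIR17HG, GPC5 and GPC5-AS1 to the unnamed antisense gene ENSG00000278177. SLITRK5, a neuronal membrane protein, stood at 794 and 872 in shLuc, 364 and 182 with shIMPA1 and 270.3 and 239.6 with shIMPDH2. MIR17HG, the host transcript of the miR-17 cluster, went from 58.5 and 62.1 to 35.9 and 27.6 (shIMPA1) and 19.6 and 32.6 (shIMPDH2). PTMAP5 is a processed copy of PTMA, which also fell, and may hold its reads. SLITRK5 and PTMAP5 kept their calls without either control library and the other 7 did not.

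A run of 9 genes below on chromosome 12, 21635342 to 24949459, held LDHB, KCNJ8, ABCC9, CMAS, ST8SIA1, C2CD5, ETNK1, SOX5 and BCAT1, of which 6 fell. KCNJ8 and ABCC9, the pore and the regulatory subunit of a potassium channel gated by ATP, lie side by side there. KCNJ8 stood at 2368 and 2286 in shLuc, 714 and 709 with shIMPA1 and 498 and 552 with shIMPDH2. ABCC9 stood at 213 and 189.9, 76.3 and 51.8 and 45.1 and 37.1, so both subunits fell by about the same factor (3.80-fold and 3.91-fold). A run of 9 genes above on chromosome 4, 105145875 to 106321495, reached from TET2, a DNA demethylase, to TBCK, with 7 risen. ARHGEF38 rose there from 73.8 and 77.9 to 169.6 and 185 (shIMPA1) and 156 and 153 (shIMPDH2), and TET2 1.41-fold, a call lost without shLuc replicate 1 (adjusted p = 0.113), shLuc replicate 2 (0.0871) or shIMPDH2 replicate 1 (0.0502). On chromosome 2, 152717893 to 157629005, all 7 genes of a run fell, KCNJ3 among them. A run of 6 ZNF genes below on chromosome 19, 22286408 to 22858667, held ZNF98, at 509 and 399.9 in shLuc, 168 and 79.4 with shIMPA1 and 228 and 179 with shIMPDH2, and ZNF492 at 542 and 429, 263 and 107 and 219 and 215. These ZNF genes are close paralogs whose reads may be split. On chromosome X, 139726346 to 143635777, CDR1 and LINC00632 lay in a run of 6 genes below with LDOC1, which went from 1858 and 2242 to 488 and 396 (shIMPA1) and 482 and 429.6 (shIMPDH2).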

How the data were processed

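Poly(A) RNA of 22RV1 cells with shLuc, shIMPA1 or shIMPDH2 was sequenced, 2 libraries per group. The submitters' processing notes name Trimmomatic 0.36, STAR 2.5.2b, Subread 1.5.2 and GRCh38, and per the labels' protocols unique reads over exons were counted with featureCounts. The annotation is not given in the sources used here, and strand was used only if a library was stranded, so overlapping and antisense genes cannot be told apart. The deposited values are a signal, the authors' read counts divided by 1 factor per library, and dividing each column by the value of 1 read gave whole reads (within 0.05) for 99.98% to 100% of values. The log2 fold changes and p-values the authors deposited belong to a comparison that the file header does not name, and they were not used.

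A gene was tested if 2 libraries or more reached a value of 10 (17742 genes, with 69 removed). In R 4.3.3, log2(value + 1) was fitted by limma 3.58.1 with a coefficient for each group and a trend of the variance on the mean, which left 3 residual degrees of freedom. Log2 changes are on that scale, which understates the change of low genes. P-values were two-sided and Benjamini-Hochberg adjusted over all tested genes. The pooled contrast was the mean of both knockdown groups minus shLuc, and the contrast between knockdowns used no shLuc library. A gene was above or below when all 4 knockdown values lay strictly beyond both shLuc values. edgeR 4.0.16 and DESeq2 1.42.0 on the recovered reads, other filters and pseudocounts, and fits leaving out 1 library served as alternatives. The fits were checked on simulated data.

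The text names genes by a rule: the largest shared changes each way among genes with a mean of 50 or more, ranked by the smaller of both knockdown changes, the most abundant, the most even and most uneven, the list members that changed most, and the targets. Others, including genes with few reads and those in runs, were chosen after their values were seen. The members and lists were chosen with earlier results of these data known. Symbols were found for 16321 identifiers, and 17750 were in GENCODE 29, which gave positions. Intervals and floors cover counting error only. A few items are not reported here.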

Additional observations from a re-analysis of the deposited data

Results flagged for a closer look

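These 10 genes lay on the same side of both controls in all 4 libraries but differed between the knockdowns (limma, shIMPDH2 minus shIMPA1), and they were picked for the size of that difference. The log2 difference was -4.56 for TUNAR, -4.34 for CYP4F8, -4.01 for ANKRD33, -3.98 for LBH and -3.75 for CDH26, all higher in shIMPA1. It was 2.48 for AVPR1A, 2.76 for PON1, 3.74 for HNMT, 4.64 for SLC16A14 and 5.59 for NUDT12, all lower in shIMPA1.

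The 4 knockdown libraries carry different hairpins and the genes examined were picked for their values, so no chance rate applies to outlying libraries. Over these 4 libraries, 1 library stood far from the other 3 for 6 of 69 genes examined. For 5 of them it was shIMPA1 replicate 2: CDH26 at 817, F3 at 2450, LAMA3 at 141 and PTPRZ1 at 2742 were high there, and FLRT2 at 86.3 was low. For LUM it was shIMPA1 replicate 1, which was high at 51.2.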

How the results depend on the processing

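No called result of a named gene changed direction under the alternatives run, but IMPA1, which was not called, went from -0.10 to 0.04 on the log2 scale without shLuc replicate 1. The balance of the counts turned in places: without shLuc replicate 1 and 2, 4416 and 4494 genes lay above against 4362 and 4456 below, and without replicate 2, 481 rose against 468 that fell. The balance turned as well with a value of at least 50 asked in at least 2 libraries, with 2828 genes above and 2650 below, against 3188 and 3280. With the 4 knockdown libraries as 1 group the pooled calls were 153 higher and 258 lower, against 1976 and 2234, and 3579 genes had an unadjusted p under 0.05. Without a mean-variance trend they were 1072 higher and 1399 lower, with 2909 genes called between the knockdowns and 738 of those separated. Leaving out 1 library gave 480 to 3630 higher, 468 to 4092 lower, 3627 to 4494 above, 3665 to 4456 below, and 1430 to 7052 called between the knockdowns, 382 to 2541 of them separated. Asking for a gap between the sides of 1.5-fold left 277 above and 594 below, and a gap of 2-fold left 87 and 253. The numbers of the replicates did not pair the samples, since same-numbered libraries deviated together with correlations of 0.042, -0.049 and 0.0003. With a replicate block the pooled calls were 1925 higher and 2311 lower, with 4537 between the knockdowns and 1204 of them separated. edgeR gave 1951 and 2406 and DESeq2 1704 and 1999. Of 257 called genes named by the rule, 159 kept their call in every leave-one-out fit, 96 with the knockdowns as 1 group and 91 under all alternatives. With 2 libraries per group, 3 residual degrees of freedom limit what can be called, and genes with few reads are limited by depth.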
